A study of Mus musculus with 16 samples.

Results

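AMPK, the kinase that cells switch on when energy runs low, was described here through 8 genes in the epididymal adipose tissue of obese mice. They are the catalytic subunits *Prkaa1* (α1) and *Prkaa2* (α2), the scaffold subunits *Prkab1* (β1) and *Prkab2* (β2), the nucleotide-binding subunits *Prkag1* (γ1) and *Prkag2* (γ2), and the upstream kinases *Stk11* (LKB1) and *Camkk2*. They were chosen by symbol among the 19505 genes with 1 symbol on the array, and all 8 were found, each with 1 transcript cluster (the set of probes that reads 1 gene). Clariom S arrays measured 16 male C57BL/6 pups, of C57Bl/6 NCrSlc dams by the study's methods, at 16.5 wks, 4 per group, 1 array per pup. NN pups were born to dams with free access to chow and were raised 8 to a litter. UN-RG pups were born to dams held to 60% of that energy and were raised 4 to a litter, so that undernutrition and rapid growth cannot be told apart. All pups, controls included, received a high-fat diet from 9 wks, and were given tauroursodeoxycholic acid (TU, 0.5 g/kg per day) or vehicle (Veh, distilled water) from 11 wks. The vehicle groups are NN-Veh and UN-RG-Veh, and the treated groups are NN-TU and UN-RG-TU. The labels conflict for NN-TU, since the source name of its 4 arrays reads NN-RG-TU while their titles and maternal diet read NN. The study describes no NN-RG group, and the litter size of NN-TU, which bears on every comparison with that group, is taken from its methods. No label or method says which pups shared a litter, so that the p-values measure the spread between these pups.

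AMPK is a complex of 1 α, 1 β and 1 γ subunit. Binding of AMP or ADP to γ keeps the complex active once LKB1, or CaMKK2 in response to calcium, has phosphorylated α. In fat cells active AMPK phosphorylates the acetyl-CoA carboxylases and other enzymes, which slows the synthesis of fatty acids. This control acts on the proteins, and the arrays measured transcripts only, so that neither the phosphorylation of AMPK nor its activity was measured.

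Values are log2 intensities, with the authors' normalization. The antigenomic control probe sets, 220 in number, match no mouse transcript, and their median was 6.27 to 6.85 on an array. The mean of each of the 8 genes over the arrays lay above most of these controls, from 77.3% for *Camkk2* to 99.5% for *Stk11*. Levels of different genes were not compared, since each probe has its own response. Transcripts of fat cells were high on all 16 arrays, with *Adipoq* (adiponectin) at 18.04 to 18.39 and *Plin1* (perilipin, the coat of the lipid droplet) at 15.09 to 15.74. In each group 1 array, NN-Veh replicate 2, NN-TU replicate 8, UN-RG-Veh replicate 12 or UN-RG-TU replicate 14, also read transcripts of motile cilia, at a mean of 7.65 to 9.27 over 8 markers. These are called the cilia-positive arrays, and where dropping them ended a call the value without them is given. In a piece of tissue fewer cells of a type and less RNA per cell cannot be told apart.

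The promoter windows of *Prkaa2* and *Prkag2* are shown first, because these were the only 2 of the 8 genes past the study's thresholds in any comparison. Each runs from 250 bases before the start of the transcript to 50 after it, in RefSeq for GRCm38.p6. Capitals mark GC boxes (GGGCGG, or CCGCCC on the other strand) and CCAAT boxes (CCAAT, or ATTGG). *Prkag2* has 3 annotated starts, of which the most upstream is shown, and the array does not tell which start was used.
Prkaa2, chr4:105109849-105110148, minus strand: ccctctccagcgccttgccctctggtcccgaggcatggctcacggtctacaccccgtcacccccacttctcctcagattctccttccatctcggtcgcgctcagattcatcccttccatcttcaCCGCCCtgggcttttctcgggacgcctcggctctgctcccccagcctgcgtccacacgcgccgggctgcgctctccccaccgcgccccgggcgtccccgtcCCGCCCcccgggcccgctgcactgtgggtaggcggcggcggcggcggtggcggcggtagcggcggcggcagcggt
Prkag2, chr5:25100593-25100892, minus strand: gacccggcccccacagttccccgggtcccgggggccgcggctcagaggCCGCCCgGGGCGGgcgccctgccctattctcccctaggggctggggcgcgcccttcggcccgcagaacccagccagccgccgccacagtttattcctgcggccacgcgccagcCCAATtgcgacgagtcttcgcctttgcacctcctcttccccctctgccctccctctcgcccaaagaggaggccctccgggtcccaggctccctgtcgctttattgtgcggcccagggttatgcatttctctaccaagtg

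The *Prkaa2* window held 2 GC boxes and 0 CCAAT boxes. The *Prkag2* window held 2 GC boxes and 1 CCAAT box. Of all 32851 windows of this length, 35.7% held a GC box and 37.4% a CCAAT box. All 8 genes had a window, 10 in all, and none held a TATA box (TATAAA, in 13.6% of all windows), an E-box (CACGTG, 7.15%) or a cAMP response element (TGACGTCA, 1.79%). The hexamer of nuclear receptors (AGGTCA, 16.3%) was found once, in the middle *Prkag2* window. The G and C content was 50.3% to 82.0% in these 10 windows, with 72.7% for *Prkaa2*, and had a median of 52.7% over all windows. These matches describe the letters and show no binding.

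The first question was whether growth after undernutrition *in utero* changed these transcripts. *Prkaa2*, the α2 catalytic subunit, was lower in UN-RG-Veh pups, by a linear fold of 1.64 against NN-Veh. *Prkag2*, the γ2 subunit that senses AMP, was lower by a fold of 1.33. The other 6 genes did not pass the thresholds of the study, a linear fold of at least 1.3 at p under 0.05 before adjustment. None of the 8 passed an adjusted p of 0.05.

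*Prkaa2* stood at 9.42, 10.03, 9.20 and 9.50 in the NN-Veh arrays. It stood at 8.86, 9.03, 8.61 and 8.79 in the UN-RG-Veh arrays. All UN-RG-Veh arrays lay below all NN-Veh arrays, of which replicate 2 was the highest. The means were 9.54 ± 0.35 (SD, n = 4) and 8.82 ± 0.17, a log2 fold change of −0.71 (SE 0.17, 95% confidence interval −1.08 to −0.35). Limma gave an unadjusted p of 0.000733 and an adjusted p of 0.387, and *Prkaa2* ranked 42 by p among 22206 clusters. With the cilia-positive arrays dropped the log2 fold change was −0.54 (unadjusted p = 0.0109 and adjusted p = 0.935 from limma).

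*Prkag2* stood at 10.89, 10.69, 10.94 and 11.02 in NN-Veh. In UN-RG-Veh it stood at 10.74, 10.52, 10.44 and 10.21. The groups overlapped, since UN-RG-Veh replicate 9 lay above NN-Veh replicate 2. The log2 fold change was −0.41 (SE 0.15, 95% confidence interval −0.72 to −0.09), with an unadjusted p of 0.0141 and an adjusted p of 0.699 from limma. *Prkag2* no longer passed with each array centred on its median (−0.38), after quantile normalization (−0.36), or without NN-Veh replicate 4 (−0.36) or UN-RG-Veh replicate 12 (−0.32). In the first 3 of these settings the unadjusted p stayed under 0.05 and the fold fell below 1.3.

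The 2 genes lower at the study's thresholds are 2 of 8, where 1.99% of all clusters were lower. Groups without overlap in this direction were found for 1 of the 8 genes and for 1.92% of all clusters, and 0.00901% of all clusters passed the adjusted p. The genes and lists were chosen with earlier results of these data known. Counts set beside shares, here and below, are thus a description and no test of an excess. All 8 estimates were below 0, with a median log2 fold change of −0.22 against 0.01 over all clusters. The sign of 2 of them did not hold in every setting. *Prkab1* was at 0.12 with the cilia-positive arrays dropped, and *Prkag1* at 0.0468 without UN-RG-Veh replicate 11. The 6 genes that did not pass had estimates of −0.03 for *Prkag1* to −0.27 for *Prkab2*, and 95% confidence intervals that held 0. That of *Prkab2*, the β2 scaffold, ran from −0.60 to 0.06, and that of *Prkaa1*, the α1 catalytic subunit, from −0.53 to 0.11. The interval of *Stk11* was −0.42 to 0.16 and that of *Camkk2* −0.61 to 0.16.

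**Figure D1:**
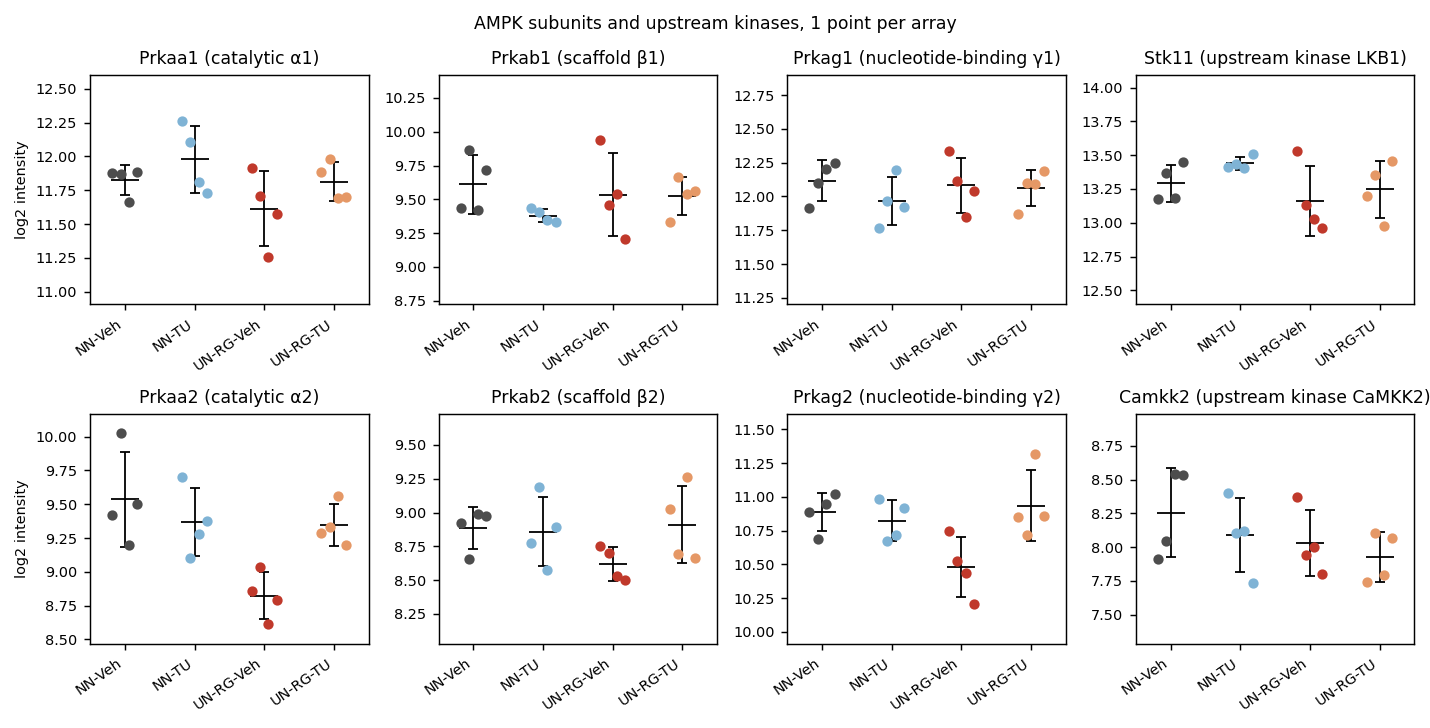
Log2 intensity (vertical axis) of each of the 8 genes in the 4 groups (horizontal axis), 1 point per array, with the mean and SD of each group as bars; all panels span the same number of log2 units. The UN-RG-Veh points of *Prkaa2* lie at 8.61 to 9.03, below every point of the other 3 groups, which start at 9.10.

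TU was then compared with vehicle in UN-RG pups. *Prkaa2* and *Prkag2* were higher with TU, by linear folds of 1.43 and 1.37. *Prkab1*, *Prkag1*, *Stk11* and *Camkk2* had estimates of −0.10 to 0.09 on the log2 scale. This comparison and the one before share the UN-RG-Veh arrays, so that their directions are not independent.

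*Prkaa2* stood at 9.29, 9.33, 9.56 and 9.20 in UN-RG-TU. All 4 of these arrays lay above all UN-RG-Veh arrays, of which the highest was 9.03. The log2 fold change was 0.52 (SE 0.17, 95% confidence interval 0.16 to 0.88), with an unadjusted p of 0.00782 and an adjusted p of 0.372 from limma. It was 0.51 with the cilia-positive arrays dropped, and 0.45 to 0.59 with any 1 array left out.

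*Prkag2* stood at 10.85, 10.72, 11.32 and 10.86 in UN-RG-TU. Replicate 15 was the highest of all 16 arrays, and replicate 14 lay just below UN-RG-Veh replicate 9, so that the groups overlapped. The log2 fold change was 0.46 (SE 0.15, 95% confidence interval 0.14 to 0.77), with an unadjusted p of 0.00703 and an adjusted p of 0.357 from limma. Without UN-RG-TU replicate 15 it was 0.33 and without UN-RG-Veh replicate 12 it was 0.37, and in both cases the fold fell below 1.3.

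Of all clusters 2.73% were higher with TU at the study's thresholds, and groups without overlap in this direction made up 1.84%, beside 2 and 1 of the 8 genes. The share past the adjusted p was 0%. *Prkab2* stood at 8.67 to 9.26 in UN-RG-TU and at 8.50 to 8.75 in UN-RG-Veh, with a log2 fold change of 0.29 (95% confidence interval −0.04 to 0.62) that did not pass. *Prkaa1* was at 0.20 (95% confidence interval −0.12 to 0.52).

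In NN pups none of the 8 genes passed with TU, where 3.29% of all clusters did at the study's thresholds and 0% at the adjusted p. *Prkaa2* stood at 9.70, 9.10, 9.28 and 9.38 in NN-TU, within the range of the NN-Veh arrays but for replicate 6. Its log2 fold change was −0.17 (95% confidence interval −0.53 to 0.19). *Prkag2* stood at 10.67 to 10.98, with a log2 fold change of −0.06 (95% confidence interval −0.38 to 0.25). *Prkab1* had the largest difference in size of the 8, at −0.23 (95% confidence interval −0.54 to 0.08).

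Whether the effect of TU differed between UN-RG and NN pups was tested with an interaction term, the effect in UN-RG minus that in NN. For *Prkaa2* the difference between the effects was 0.69 on the log2 scale (SE 0.24, 95% confidence interval 0.18 to 1.20), with an unadjusted p of 0.0116 and an adjusted p of 1 from limma. For *Prkag2* it was 0.52 (SE 0.21, 95% confidence interval 0.08 to 0.96), with an unadjusted p of 0.0244 and the same adjusted p. These were 2 of 8 genes past the thresholds, beside 3% of all clusters, and 0% passed the adjusted p. With the cilia-positive arrays dropped *Prkaa2* did not pass (0.52, unadjusted p = 0.0632 from limma), while *Prkag2* did (0.60). *Prkag2* did not pass with each array centred on its median (0.48), nor without NN-TU replicate 6 (0.47), UN-RG-Veh replicate 12 (0.43) or UN-RG-TU replicate 15 (0.39).

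Between UN-RG-TU and NN-TU none of the 8 genes passed, and 1.83% of all clusters did at the study's thresholds and 0% at the adjusted p. *Prkaa2* was at −0.02 on the log2 scale (95% confidence interval −0.39 to 0.34) and *Prkag2* at 0.11 (95% confidence interval −0.20 to 0.43). The order of the group means of *Prkaa2* was UN-RG-Veh, UN-RG-TU, NN-TU and NN-Veh, from low to high. Only the first step in it, from UN-RG-Veh to UN-RG-TU, exceeded the SD of both groups and was free of overlap. For *Prkag2* the order was UN-RG-Veh, NN-TU, NN-Veh and UN-RG-TU, and neighbours overlapped at every step. *Prkag2* and *Prkab2* had the same order of means.

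**Figure D2:**
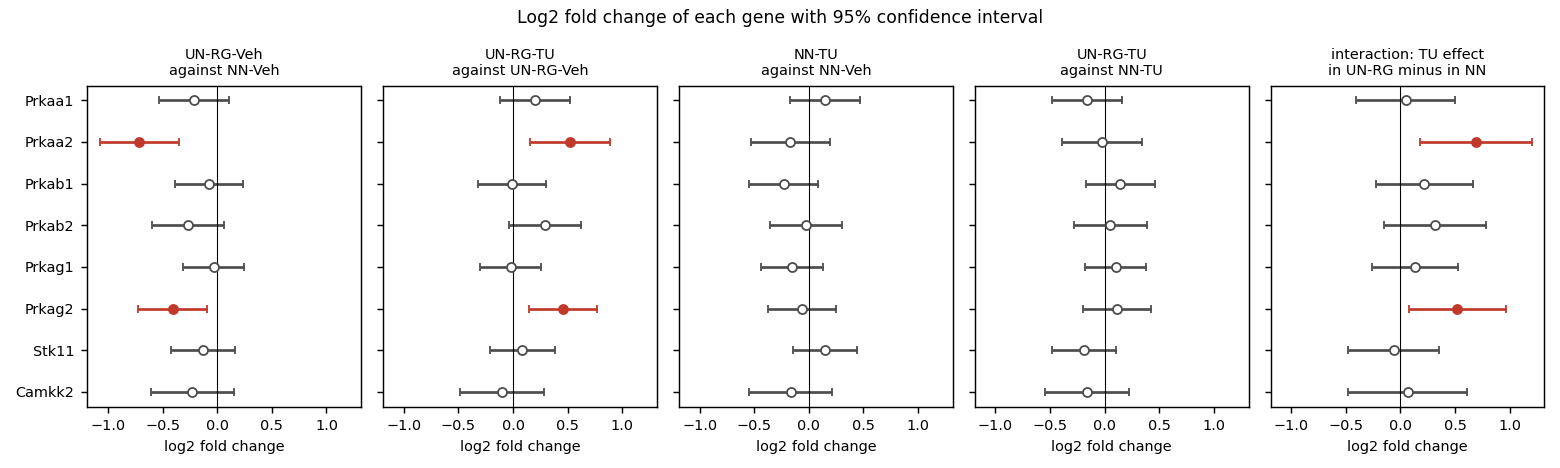
Log2 fold change (horizontal axis, points) of the 8 genes (vertical axis) with 95% confidence intervals (bars) in 4 comparisons and for the interaction; filled red points pass the thresholds of the study. *Prkaa2* and *Prkag2* are red at −0.71 and −0.41 in UN-RG-Veh against NN-Veh, at 0.52 and 0.46 with TU in UN-RG pups and at 0.69 and 0.52 for the interaction.

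The isoforms of a subunit were next set against each other within each array, as α2 minus α1, β2 minus β1 and γ2 minus γ1 on the log2 scale. These differences carry no level of their own, and their shift between groups shows unequal change only. The α difference was −2.29 ± 0.30 (SD, n = 4) in NN-Veh, −2.79 ± 0.19 in UN-RG-Veh, −2.47 ± 0.24 in UN-RG-TU and −2.61 ± 0.28 in NN-TU. It did not overlap between NN-Veh (−2.46 to −1.85) and UN-RG-Veh (−3.06 to −2.64). The γ difference was −1.23 ± 0.16 in NN-Veh, −1.61 ± 0.17 in UN-RG-Veh, −1.13 ± 0.28 in UN-RG-TU and −1.14 ± 0.31 in NN-TU. It ran from −1.83 to −1.41 in UN-RG-Veh and from −1.41 to −1.02 in NN-Veh, so that the groups met at their edges. In UN-RG-TU the γ difference ran from −1.38 to −0.78, without overlap with UN-RG-Veh. The α difference ran there from −2.65 to −2.13 and overlapped UN-RG-Veh at the edge. The β difference overlapped between all groups, with means of −0.92 to −0.52.

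With the group means taken out, the correlation between any 2 of the 8 genes over the 16 arrays was −0.20 to 0.73, as a description. The highest was that of *Prkab1* with *Stk11*, and *Prkaa2* with *Prkag2* had 0.21. The points share an array, and thus its RNA quality and mix of cells. By the same measure the genes most like *Prkaa2* were *Cdc37l1*, a relative of a chaperone partner of HSP90 (r = 0.85), and *Stard7*, a carrier of phosphatidylcholine (r = 0.85). Those most like *Prkag2* were *Tmem98*, a membrane protein (r = 0.94), and *Mrpl20*, a protein of the mitochondrial ribosome (r = 0.94). For the other 6 genes the 2 nearest genes had r of 0.86 to 0.93. All these neighbours were picked as the highest among all genes with 1 symbol, and that choice alone favours a high r. With the group means left in, r with *Prkaa2* was 0.60 for *Cdc37l1* and 0.81 for *Stard7*. For *Prkag2* it was 0.89 with *Tmem98* and 0.74 with *Mrpl20*.

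Genes that act around AMPK were read from 4 lists. Of these genes *Strada* (a STRAD), *Ulk1*, *Nuak2*, *Mark4*, *Brsk1* and *Lepr* had a mean at or below the antigenomic median. Of 17 measured partners and regulators, such as the LKB1 partners STRAD and MO25, the folliculin complex and the sestrins, 0 passed in UN-RG-Veh against NN-Veh and 0 with TU in UN-RG pups. With TU in NN pups 2 were higher, where 1.36% of all clusters were, *Prkag3*, the γ3 subunit known from skeletal muscle, and *Sesn1*, a sestrin that restrains mTORC1. *Prkag3* stood at 8.13, 7.53, 8.09 and 7.85 in NN-Veh and at 8.22, 8.67, 8.28 and 8.43 in NN-TU, without overlap (log2 fold change 0.50, SE 0.15, adjusted p = 0.754 from limma). With the cilia-positive arrays dropped it was at 0.37 (unadjusted p = 0.0548 from limma) and did not pass. In UN-RG pups *Prkag3* stood at 7.74 to 8.11 with vehicle and at 8.20 to 8.61 with TU, also without overlap. There its log2 fold change was 0.38 (SE 0.15, unadjusted p = 0.0251 and adjusted p = 0.528 from limma), just under the fold threshold, and the interaction was −0.12 (SE 0.22). *Prkag3* was dim, with group means of 7.90 to 8.40. Those of *Camkk2*, whose mean lay above only 77.3% of the antigenomic controls, were 7.93 to 8.26. *Sesn1* was at 0.42 (SE 0.15, adjusted p = 0.843), did not pass without NN-Veh replicate 2 (0.33), and had an interaction of −0.56 (SE 0.21), which did not pass with the cilia-positive arrays dropped (−0.42). In UN-RG-Veh against NN-Veh *Sesn1* was at 0.37 (SE 0.15, unadjusted p = 0.0266 from limma), just under the fold threshold. Its mean was lowest in NN-Veh, at 11.31, against 11.55 to 11.73 in the other groups. For the interaction 1 of the 17 was lower, beside 3% of all clusters in either direction.

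Of 18 measured substrates of AMPK 2 were lower and 1 higher in UN-RG-Veh against NN-Veh, with a median log2 fold change of −0.18, beside 1.99% of all clusters lower and 2.46% higher. *Acaca*, acetyl-CoA carboxylase 1, which makes malonyl-CoA for fatty acid synthesis, stood at 12.28, 12.47, 12.05 and 12.54 in NN-Veh. It stood at 11.44, 11.63, 11.58 and 11.28 in UN-RG-Veh, below all NN-Veh arrays. The log2 fold change was −0.85 (SE 0.24, adjusted p = 0.497 from limma). *Gys1*, glycogen synthase, was at −0.48 (SE 0.16, adjusted p = 0.605), also without overlap. *Acacb*, acetyl-CoA carboxylase 2 of the mitochondrial surface, was the 1 higher, at 0.47 (SE 0.17), and did not pass without NN-Veh replicate 4 or UN-RG-Veh replicate 12, or by the methods' t-test. It was at 0.37 with the cilia-positive arrays dropped (unadjusted p = 0.0826 from limma), and did not pass. Its mean level was 7.11 ± 0.23 in NN-Veh and 7.58 ± 0.31 in UN-RG-Veh, near the antigenomic median.

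With TU in UN-RG pups the same 2 substrates, *Acaca* and *Gys1*, were higher and 0 were lower, beside 2.73% and 3.18% of all clusters. *Acaca* stood at 12.86, 11.48, 12.74 and 11.99 in UN-RG-TU, so that 2 arrays lay above every NN-Veh array and replicate 14 lay within UN-RG-Veh. The log2 fold change was 0.78 (SE 0.24, adjusted p = 0.328), which did not pass by the methods' t-test. The interaction of *Acaca* was 1.0005 (SE 0.34, unadjusted p = 0.0101 from limma). Of the 18 substrates 1 was higher and 1 lower for the interaction, beside 3% of all clusters in either direction, and 0% passed the adjusted p. *Gys1* stood at 11.64, 11.60, 11.75 and 11.47, above all UN-RG-Veh arrays, which ran from 10.90 to 11.30. Its log2 fold change was 0.47 (SE 0.16, adjusted p = 0.387). With the cilia-positive arrays dropped it was at 0.39, still past the fold threshold, with an unadjusted p of 0.0595 from limma. *Txnip*, a regulator of glucose uptake, was higher with TU in NN pups at 0.39 (SE 0.18) and lost the call without any of 6 of the 8 arrays, and with the cilia-positive arrays dropped (0.23). *Foxo3*, a transcription factor read near the antigenomic median, had an interaction of −0.52 (SE 0.22), lost without any of 7 of the 16 arrays and, at the same size (−0.52, unadjusted p = 0.0721 from limma), with the cilia-positive arrays dropped.

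Of 11 measured kinases that LKB1 also phosphorylates, 0 passed in UN-RG-Veh against NN-Veh. With TU in UN-RG pups 1 was higher, beside 2.73% of all clusters, *Sik2*, a salt-inducible kinase that is abundant in fat. It stood at 13.21, 13.46, 13.13 and 12.88 in UN-RG-Veh and at 13.50 or higher in all UN-RG-TU arrays, without overlap (log2 fold change 0.55, SE 0.19, adjusted p = 0.397 from limma). With TU in NN pups *Sik2* was at 0.41 (SE 0.19) and lost the call without any of 5 of the 8 arrays and in 4 of the other settings, among them median centring and the cilia-positive arrays dropped (0.26). Of the 6 adipokines and receptors that act on AMPK, adiponectin and leptin among them, 0 passed in any comparison.

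**Figure D3:**
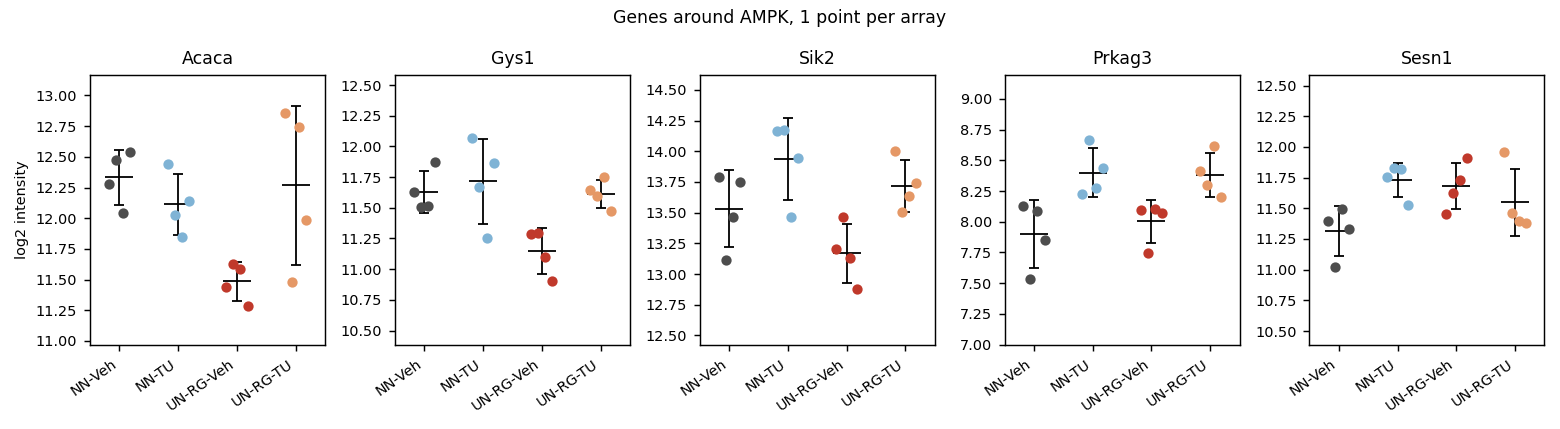
Log2 intensity (vertical axis) of 5 genes around AMPK in the 4 groups (horizontal axis), 1 point per array, with the mean and SD of each group as bars. *Acaca* is at 11.28 to 11.63 in UN-RG-Veh and at 12.05 to 12.54 in NN-Veh, and its UN-RG-TU arrays spread from 11.48 to 12.86.

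Markers of several cell types moved with the same comparisons, and their part in the results above was not tested. The shares of all clusters to set beside these counts are 2.46% higher and 1.99% lower for UN-RG-Veh against NN-Veh. For TU in UN-RG pups they are 2.73% higher and 3.18% lower. Of 9 measured markers of fat cells 1 was lower in UN-RG-Veh against NN-Veh, and 1 was higher when UN-RG pups had TU. The mean of the list was 17.17 to 17.44 in NN-Veh, 17.13 to 17.30 in UN-RG-Veh and 17.34 to 17.43 in UN-RG-TU. Of 11 macrophage markers 2 were higher in UN-RG-Veh, and 5 were lower when UN-RG pups had TU, with a mean of 11.96 to 12.14 in UN-RG-Veh, 11.54 to 12.07 in NN-Veh and 11.27 to 11.89 in UN-RG-TU. With TU in NN pups 4 of the 11 were lower, beside 1.93% of all clusters, and the mean was 10.98 to 11.97. Of 11 markers of mesothelium, the cover of the fat pad, 3 were lower in UN-RG-Veh and 7 higher with TU, with a mean of 7.39 to 8.59 in NN-Veh, 6.32 to 7.85 in UN-RG-Veh and 7.71 to 8.98 in UN-RG-TU. *Krt18*, *Wt1* and *Bnc1* of this list lay at or below the antigenomic median. Of 9 markers of skeletal and smooth muscle, the first of which is known to hold much α2, 1 was lower in the UN-RG-Veh group and 3 higher with TU. Their mean was 7.85 to 8.31 in NN-Veh, 7.64 to 7.94 in UN-RG-Veh and 7.95 to 8.62 in UN-RG-TU, and *Myh4*, *Myh1*, *Tnnt3* and *Actg2* lay at or below the antigenomic median. Of 8 markers of testis and germ cells 3 were lower in UN-RG-Veh, and 7 of the 8 had a mean at or below the antigenomic median. Their mean was 4.89 to 8.23 in NN-Veh, 4.73 to 4.84 in UN-RG-Veh and 4.95 to 6.03 in UN-RG-TU. NN-Veh replicate 3 alone stood at 8.23, and the other NN-Veh arrays ran from 4.89 to 5.90. In NN-TU the mean was 4.83 to 7.63, with replicate 8 the highest. Of 8 markers of T, B and NK cells 1 was higher in UN-RG-Veh and 3 were lower in UN-RG-TU than in UN-RG-Veh, and 6 of the 8 (*Cd3e*, *Cd3g*, *Cd8a*, *Cd79a*, *Ms4a1* and *Nkg7*) had a mean at or below the antigenomic median. Of 7 endothelial and 7 stromal markers 0 passed in UN-RG-Veh, while with TU 2 endothelial markers were lower and 1 stromal marker higher in UN-RG pups. With TU in NN pups 0 of the mesothelium markers passed, 1 muscle marker was lower and 1 fat cell marker higher. The shares of all clusters there were 1.36% higher and 1.93% lower. For the interaction 4 mesothelium, 3 muscle and 1 fat cell markers were higher, beside 3% of all clusters in either direction. In it 1 marker of T, B and NK cells was lower and 0 macrophage markers passed. No endothelial, stromal or testis and germ cell marker passed in either. In UN-RG-TU against NN-TU 3 muscle markers were higher and 1 lower, and 1 mesothelium marker was higher. Beside them stood 1.83% of all clusters in either direction. No marker of the other cell types passed there.

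**Figure D4:**
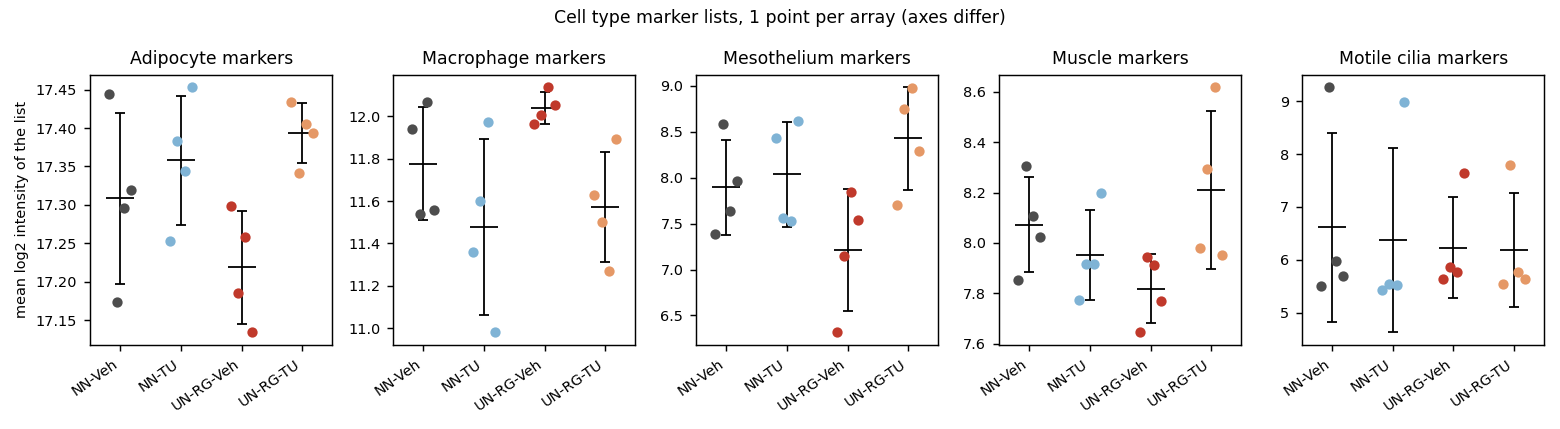
Mean log2 intensity (vertical axis, range differs by panel) of 5 lists of cell type markers in the 4 groups (horizontal axis), 1 point per array, with the mean and SD of each group as bars. The macrophage mean is at 11.96 to 12.14 in UN-RG-Veh, and for the markers of motile cilia 1 array per group stands at 7.65 to 9.27.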

How the data were processed

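RNA of epididymal adipose tissue from 16 pups was labelled with the WT PLUS kit and hybridized to Clariom S mouse arrays. Scans were read by the authors in Expression Console, then in Transcriptome Analysis Console. Versions and the normalization method are not given in the sources used here. Each deposited value is a linear, normalized intensity of 1 transcript cluster, and its log2 was taken. Of 22520 lines 314 were controls, and 22206 clusters were tested, with no filter on dim ones. Array medians were 7.00 to 7.16 on the log2 scale, and the number of arrays limits the precision.

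Limma 3.58.1 (R 4.3.3) fitted the 4 group means over 16 arrays and all clusters, with moderated variances. P-values were adjusted by Benjamini-Hochberg, separately for each comparison, and those of single genes come from this fit. The steps were tested on simulated data. Of 18 regulators, 22 substrates, 12 related kinases and 6 adipokine genes, 17, 18, 11 and 6 were matched by symbol. Up to 4 genes of a list with the smallest p past the study's thresholds were named in each comparison, and for each of the 8 genes the nearest by correlation. The genes and lists were chosen with earlier results of these data known. Arrays counted as holding transcripts of motile cilia where the mean of 8 markers lay over 1 log2 unit above the median array. Promoters are from RefSeq, GRCm38.p6. The labels give no batch. Alternatives were a filter on dim clusters, median centring, quantile normalization, the compared groups alone, the methods' t-test, an intensity trend with a robust prior, 1 cluster per gene, and arrays left out.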

Additional observations from a re-analysis of the deposited data

Results flagged for a closer look

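*Prkaa1*, the α1 catalytic subunit, had 1 NN-Veh array apart from the others. Replicate 3 stood at 11.66 and the other 3 at 11.87 to 11.89, and its gap was 0.935 of the range of the group. Of 32 groups of 4 arrays this was the only one so marked, and chance marks about 1 in 20.

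The effect of TU differed between UN-RG and NN pups at an unadjusted p under 0.05 for *Prkaa2*, by 0.69 on the log2 scale, and for *Prkag2*, by 0.52. Both had an adjusted p of 1 from limma. The p-values were 0.0116 and 0.0244 before adjustment.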

How the results depend on the processing

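Over 40 log2 fold changes of the 8 genes, 650 of 696 alternative values kept their direction and their side of the study's thresholds, 11 lost the call, 0 gained one and 35 changed sign. The 11 belong to *Prkag2* in 3 results and to the interaction of *Prkaa2*, as given above. Only median centring, quantile normalization and leaving out arrays alter a log2 fold change. The remaining settings keep its value, so that its direction could not change there and only its p could. A result that did not pass counted as kept wherever it stayed so with the same sign. The count of 650 is thus no measure of how stable the results that passed are. In no setting did a gene of the 8 pass an adjusted p of 0.05. The number of the 8 past the thresholds in UN-RG-Veh against NN-Veh was 1 after median centring and 1 after quantile normalization, against 2, and 1 to 2 with 1 array left out. With TU in UN-RG pups it was 1 to 2 with 1 array left out. For the interaction it was 1 after median centring, 1 with the cilia-positive arrays dropped, and 1 to 2 with 1 array left out.

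The changes of sign concern estimates that did not pass. With the cilia-positive arrays dropped *Prkab1* was at 0.12 in UN-RG-Veh against NN-Veh and *Stk11* at −0.0182 with TU in UN-RG pups, and the interaction was −0.12 for *Prkaa1*, −0.0379 for *Prkab1* and −0.12 for *Camkk2*. *Prkab2* with TU in NN pups was at 0.0034 after median centring and 0.0133 after quantile normalization, and *Prkaa2* in UN-RG-TU against NN-TU was at 0.0090 after the latter. With 1 array left out, the range in UN-RG-Veh against NN-Veh was −0.21 to 0.0345 for *Prkab1* and −0.12 to 0.0468 for *Prkag1*. With TU in UN-RG pups it was −0.12 to 0.12 for *Prkab1*, −0.10 to 0.0636 for *Prkag1* and −0.18 to 0.0126 for *Camkk2*, and in NN pups −0.14 to 0.0670 for *Prkab2*. In UN-RG-TU against NN-TU it was −0.11 to 0.0892 for *Prkaa2*, −0.0638 to 0.16 for *Prkab2* and −0.0150 to 0.19 for *Prkag2*. For the interaction it was −0.0710 to 0.15 for *Prkaa1*, −0.13 to 0.0633 for *Stk11* and −0.0540 to 0.18 for *Camkk2*. The cause was not tested.

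The fit of the compared groups alone was not run for the interaction, which uses all 4 groups. No paired analysis was possible, since no label or method says which pups shared a litter. The replicate numbers run through all 16 arrays and give no pairing.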
